A study of Mus musculus with 2 samples.

Results

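Interferon-induced antiviral genes and GTPases were followed in lipopolysaccharide-stimulated mouse macrophages with and without a functional Pac1 gene. Pac1, whose official symbol is Dusp2, encodes a dual-specificity phosphatase of MAP kinases. The members were a fixed list of 41 genes of the Ifit, Oas, Mx, Gbp, immunity-related GTPase, Ifi200 and Trim families and of related effectors. Probe sets annotated to 1 gene only covered 27 of them, out of 8220 genes so covered on the array. A further 3 members (Tgtp1, Ifi203 and Ifi205) were annotated only through probe sets that also list other genes, and were kept apart. For the other 11 members (Oasl1, Oasl2, Oas1a, Oas2, Oas3, Gbp4, Ifi44, Bst2, Zbp1, Rigi and Xaf1) the annotation used here listed no probe set.

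Pac1-/- cells made up 1 sample and Pac1+/+ (wild-type) cells of age-matched littermates the other, with 1 Affymetrix array for each. Both were macrophages drawn into the peritoneum with thioglycollate, purified on plastic by their adherence and then given LPS at 100 ng/ml over 6 hours, so that both groups carry the recruitment stimulus and the LPS. How many mice stand behind each array is not stated in the labels. Unstimulated cells were not analysed here, and the signals therefore describe levels after LPS and not induction. Without replicates no test was made, no p-value is given, and each difference below describes these 2 arrays only.

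Signals are MAS5 intensities in arbitrary units, and a log2 ratio is that of Pac1 knockout over wild type for one probe set. Signals of different probe sets do not rank transcripts by abundance, because probes differ in brightness. Genes with a signal over a floor of 36.4, the median of all signals, on at least 1 array numbered 5119 and are called eligible. Of them 1433 had a mean signal of 300 or more and are called bright here. The Dusp2 probe set gave 76.8 in Pac1-/- cells and 333 in wild-type cells, a log2 ratio of −2.12. The labels do not say which part of Dusp2 was deleted, so this probe set is a partial check of the genotype. All 10 macrophage markers were eligible, among them Itgam (356 in Pac1-/- cells and 301 in wild-type cells), which encodes the Mac-1 chain used to assess the preparations. Their signals summed to 26215 in Pac1-/- cells and 23278 in wild-type cells. Their median log2 ratio was 0.20, with 7 above 0 and 3 (Msr1, Mrc1 and Marco) below. Msr1 had 1366 in Pac1-/- cells and 2171 in wild-type cells (−0.67) and was 1.59-fold lower. In 7 other cell classes (stromal cells, dendritic cells, neutrophils, eosinophils, mast cells, B cells, and T with NK cells) the eligible markers summed to between 32.8 and 1375 per class in the knockout and between 16 and 1805 in the wild type. The 8 eligible stromal and mesothelial markers summed to 1375 in Pac1-/- cells and 1805 in wild-type cells. Of these 6 were below 0, 3 of them 1.5-fold or more lower, and the median was −0.38. Among all eligible genes 2447 of 5119 were below 0 and 5.72% were 1.5-fold or more lower. The classes differ in their probe sets and in how many markers were eligible, so the sums do not rank them. For T and NK cells 1 of 7 measured markers was eligible, for neutrophils 4 of 8 and for B cells 5 of 5, the last with sums of 412 in Pac1-/- cells and 484 in wild-type cells. The part of these markers in the results was not tested.

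Bacterial lipopolysaccharide acts on Toll-like receptor 4, and the arm of its signal that runs through the adaptor TRIF and the transcription factor IRF3 leads macrophages to make interferon-beta. The secreted interferon binds its receptor on the same and neighbouring cells, where the kinases JAK1 and TYK2 pass the signal on. A factor that contains IRF9 then binds the interferon-stimulated response element in the promoters of antiviral genes. Interferon-gamma acts on a second element, the gamma-activated site, which many GTPase genes carry as well.

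What the members have in common beside their annotation was examined in their promoters, in windows of 250 bases before to 50 after each annotated transcript start, taken from RefSeq (GRCm38.p6). Windows were present for 22 of the 27 members. The response element was searched as GAAA, 2 bases of any kind and GAAA again, on both strands, with overlapping matches kept. It was found in 14 of the 22 members (63.6%), against 3.99% of all 27025 genes of the promoter table. The gamma-activated site was searched as TTCNNNGAA, which reads the same on both strands, and was found in 8 of the 22 (36.4%), against 9.55% of all genes. Both occurred in a single window for 3 of the 22 members (Igtp, Irgm2 and Eif2ak2), against 0.54% of all genes. These matches describe the sequence and are no evidence of binding in these cells.

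**Figure D1:**
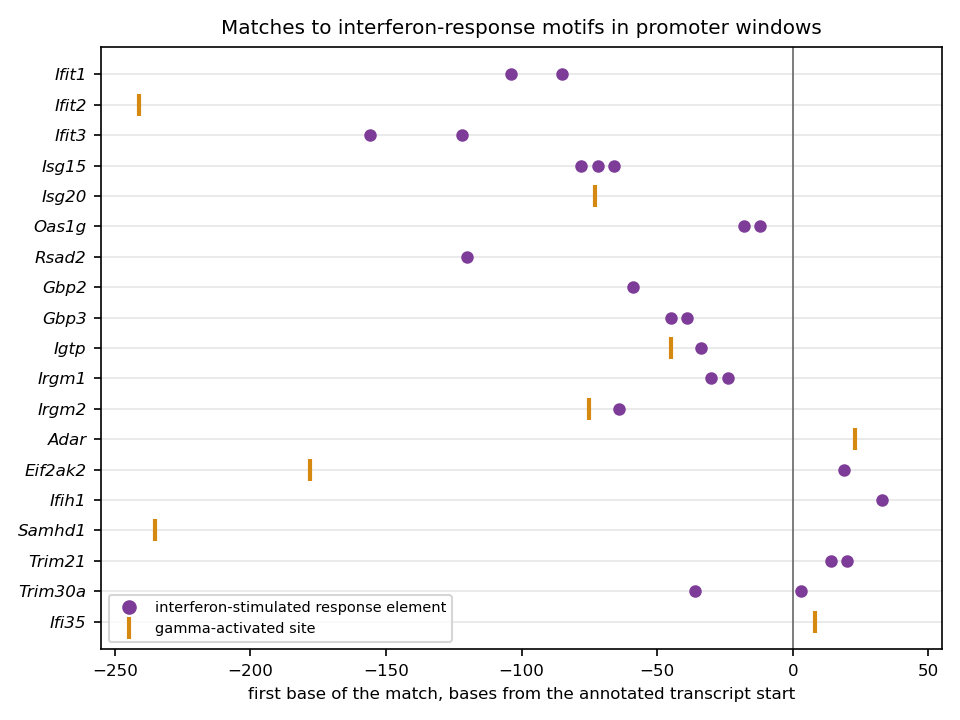
Positions of motif matches in the promoter windows of the members with a window and at least 1 match. The horizontal axis gives the first base of each match in bases from the annotated transcript start (negative values lie before it), circles mark the interferon-stimulated response element and bars the gamma-activated site, and circles before the start are those of Ifit1, Ifit3, Isg15, Oas1g, Rsad2, Gbp2, Gbp3, Igtp, Irgm1, Irgm2 and Trim30a.

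The stretches below show the element in 10 members with a match before the start site, 5′ to 3′ on the strand of the gene, with matches to either motif in capitals. They are shown because this element is the sequence feature most of the members share. In Ifit1, Ifit3 and Isg15 the element occurred more than once. Ifit1 (chr19:34640770-34640828, plus strand) and Ifit3 (chr19:34583358-34583431, plus strand) held 2 matches each, and Isg15 (chr4:156200860-156200911, minus strand) held 3 that overlap.
Ifit1: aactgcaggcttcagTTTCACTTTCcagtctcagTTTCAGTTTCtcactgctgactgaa
Ifit3: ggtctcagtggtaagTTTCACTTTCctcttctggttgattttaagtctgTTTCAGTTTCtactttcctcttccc
Isg15: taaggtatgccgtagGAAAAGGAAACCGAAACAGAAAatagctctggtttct

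The Oas1g (chr5:120887614-120887646, minus strand) and Rsad2 (chr12:26456548-26456587, minus strand) stretches held 2 overlapping matches and 1 match. Those of the guanylate-binding protein genes Gbp2 (chr3:142620589-142620628, plus strand) and Gbp3 (chr3:142559984-142560029, plus strand) held 1 match and 2 overlapping matches.
Oas1g: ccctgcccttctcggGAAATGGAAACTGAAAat
Rsad2: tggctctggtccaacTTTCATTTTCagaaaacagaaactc
Gbp2: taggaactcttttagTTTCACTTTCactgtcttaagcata
Gbp3: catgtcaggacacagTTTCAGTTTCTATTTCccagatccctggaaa

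Among the immunity-related GTPase genes, Irgm1 (chr11:48871421-48871465, minus strand) held 2 overlapping response elements. Irgm2 (chr11:58214887-58214937, plus strand) and Igtp (chr11:58199496-58199546, plus strand), which are adjacent protein-coding genes, each held a gamma-activated site that starts 11 bases before the response element. Their stretches of 51 bases were identical at 49 positions. The window of Tgtp1, another gene of this family, had the motifs at the same spacing of 11 bases.
Irgm1: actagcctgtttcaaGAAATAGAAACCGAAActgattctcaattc
Irgm2: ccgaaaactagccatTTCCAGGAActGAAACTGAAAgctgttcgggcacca
Igtp: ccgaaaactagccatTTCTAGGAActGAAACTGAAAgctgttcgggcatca

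Across the 27 measured members the arrays were close to each other, as they were for most bright genes. These are bulk samples, in which fewer cells of a type and less RNA per cell cannot be told apart. Of the 27 members 1 was 1.5-fold or more higher in the knockout (Oas1g) and 0 were 1.5-fold or more lower, against 6.37% and 5.72% of all eligible genes. None of the 27 was 2-fold apart in either direction (0 of 27), against 1.23% of eligible genes higher and 1.07% lower. The members lay under 1.2-fold apart in 20 of 27 cases (74.1%), against 58.7% of all eligible genes. Dim signals scatter more and the median member had a higher mean signal than 96.6% of eligible genes, so the bright genes are the closer comparison. Of the 23 bright members 20 (87.0%) were under 1.2-fold apart, against 74.7% of bright genes, and 0 of 23 were 1.5-fold apart, against 1.26% of bright genes higher and 2.3% lower. The bright members were still the brighter set, with a median mean signal of 3156 against 684 for all bright genes. These shares are therefore not matched for brightness, and its part in the difference was not tested.

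The median log2 ratio of the members was 0.046, with 16 above 0 and 11 below, and that of all eligible genes was 0.016. When equal medians rather than equal trimmed means were used to scale the arrays, the median of all eligible genes shifted by −0.11, the members' median was −0.073 and the split was 10 above and 17 below 0. With quantile normalization it was −0.014 and with loess −0.0079, so the sign of the members' median depended on the scaling. Of the 27 members 10 stayed above 0 and 11 below 0 under every processing tried in which they had a value, while 6 (Ifit1, Ifit2, Isg15, Rsad2, Gbp2 and Ifih1) had both signs.

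**Figure D2:**
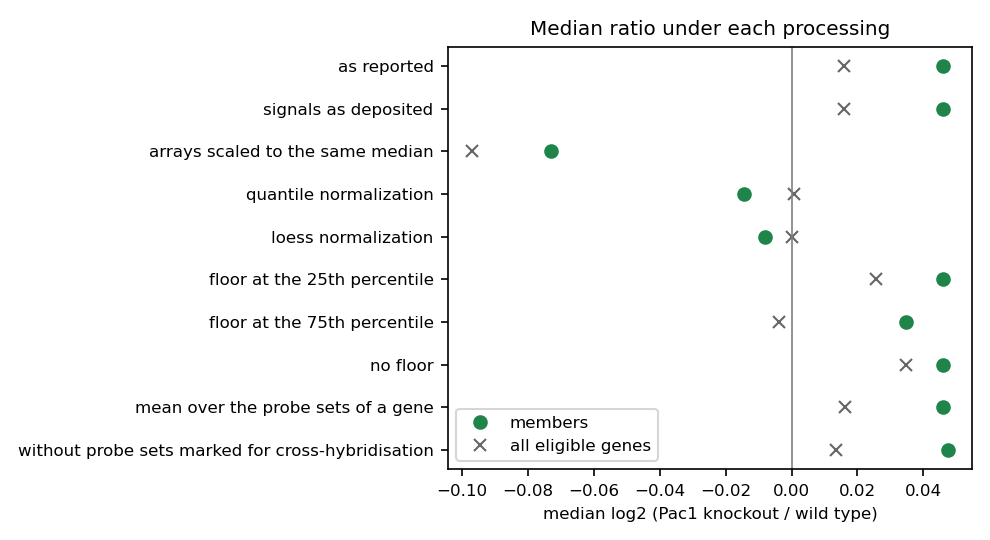
Median log2 ratio of Pac1 knockout over wild type (horizontal axis) for the members (circles) and for all eligible genes (crosses) under each processing (rows). Scaling to equal medians put the members at −0.073 and all genes at −0.097, against 0.046 and 0.016 as reported.

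As a yardstick of technical scatter, probe sets of the same gene were compared with each other. Over 119 pairs of bright probe sets from 101 genes, the log2 ratios of the pair differed by a median of 0.18, and by 0.47 or less in 90% of pairs. Such pairs share the RNA and the arrays, so mouse-to-mouse variation is not in this figure. The difference within a pair holds the scatter of both its ratios, while a member's distance from 0 holds that of a single ratio. As a limit for single members the yardstick is therefore too wide. The log2 ratios of 24 of the 27 members were within 0.47 of 0, and the other 3 were Oas1g, Igtp and Iigp1, whose mean signals were under 300. Over all 690 pairs above the floor on both arrays, dim ones included, the difference was 0.72 or less in 90% of pairs. Igtp (0.49) and Iigp1 (−0.51) were nearer to 0 than that, and Oas1g (0.82) was not. The central 95% of all eligible genes ran from −0.80 to 0.81.

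**Figure D3:**
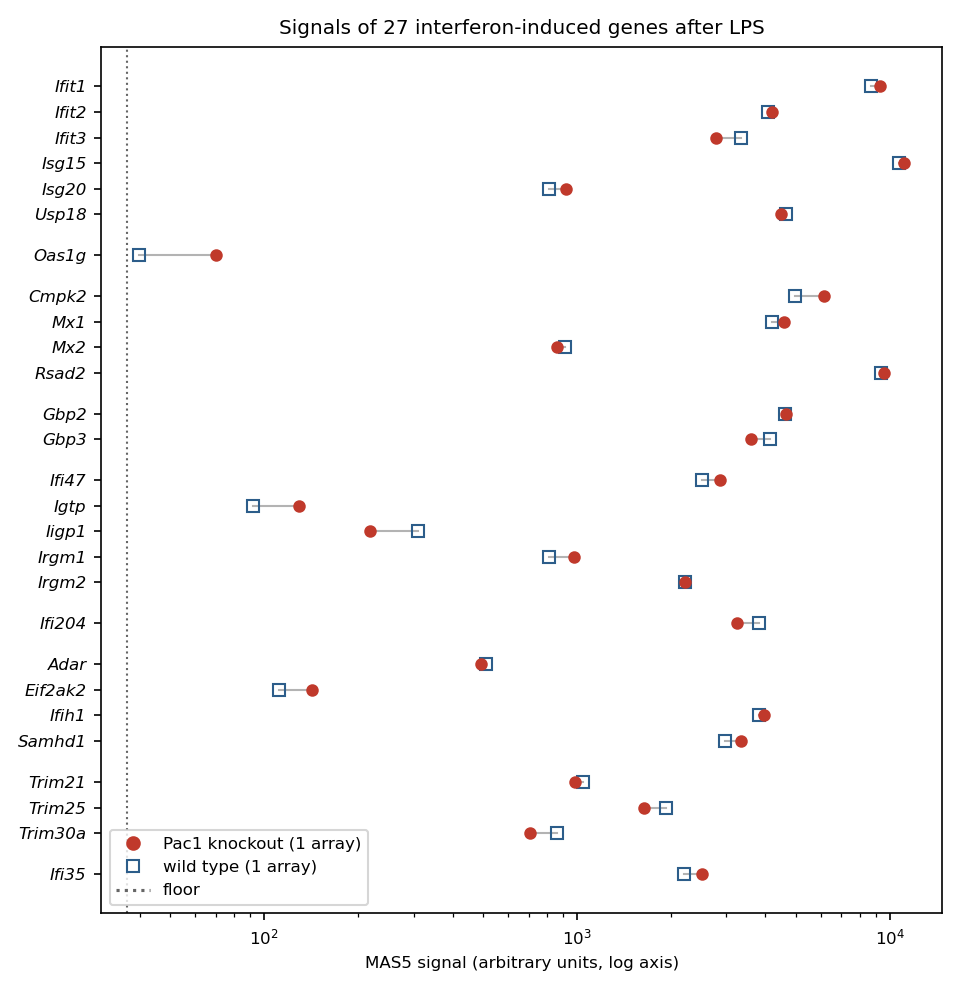
MAS5 signals of the 27 measured members (log axis, arbitrary units) on the Pac1 knockout array (filled circles) and the wild-type array (open squares), grouped by subfamily, with the floor as a dotted line. The pairs of symbols overlap or lie close for most genes, and the widest gap is that of Oas1g, which is next to the floor.

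The Ifit proteins bind foreign RNA that lacks the marks of host messages. Ifit1 had a signal of 9319.8 in Pac1-/- cells and 8728 in wild-type cells, a log2 ratio of 0.095. Ifit2 had 4205 in Pac1-/- cells and 4074 in wild-type cells (0.046). Ifit3 had 2786 in Pac1-/- cells and 3331 in wild-type cells (−0.26), the lowest of the 3. Ifit2 and Ifit3 are adjacent genes, and their log2 ratios differed by 0.30.

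Isg15, a ubiquitin-like protein attached to other proteins during the interferon response, was measured well above the floor. Its signal was 11076 in Pac1-/- cells and 10685 in wild-type cells, a log2 ratio of 0.052. Usp18, the protease that removes ISG15 and dampens interferon receptor signalling, had 4498 in Pac1-/- cells and 4648 in wild-type cells (−0.047). Isg20, an exonuclease that degrades viral RNA, had 919.6 in Pac1-/- cells and 813 in wild-type cells (0.18). The 6 genes of the Ifit and Isg group were all under 1.2-fold apart, with a median of 0.049, which was −0.070 after scaling to equal medians.

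The oligoadenylate synthetases sense double-stranded RNA and activate RNase L, and 1 of the 6 listed was measured. Oas1g had 70.2 in Pac1-/- cells and 39.9 in wild-type cells, a log2 ratio of 0.82 and the only member 1.5-fold apart. Both signals were low, and 21.4% of eligible genes were dimmer. The gene was not eligible when the floor was set at percentile 75 of all signals.

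The Mx proteins are dynamin-like GTPases that block incoming viral nucleocapsids. Mx1 had 4583 in Pac1-/- cells and 4205 in wild-type cells (log2 ratio 0.12), and Mx2 had 864 in Pac1-/- cells and 917 in wild-type cells (−0.085). Rsad2 (viperin) makes a chain-terminating nucleotide from CTP, and its neighbour Cmpk2 encodes a nucleotide kinase. Rsad2 had 9597 in Pac1-/- cells and 9369 in wild-type cells (0.035). Cmpk2 had 6150.2 in Pac1-/- cells and 4979 in wild-type cells, and its ratio of 0.30, or 1.24-fold, was the highest among the bright members. Under the other processings in which it was computed the Cmpk2 log2 ratio lay between 0.19 and 0.30.

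**Figure D4:**
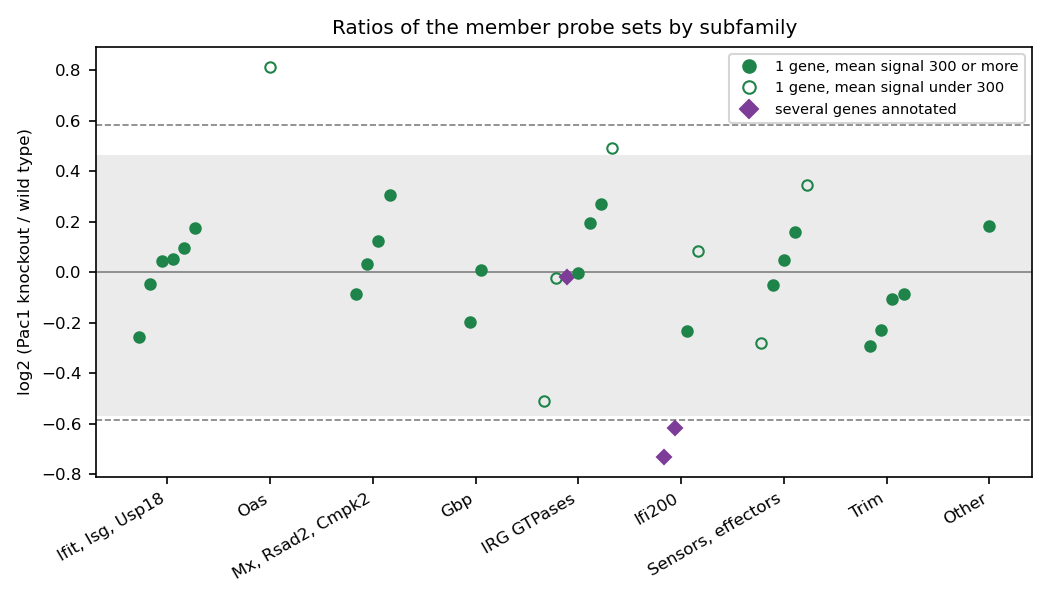
Log2 ratio of Pac1 knockout over wild type (vertical axis) for every member probe set, by subfamily (horizontal axis). Circles are probe sets annotated to 1 gene, filled where the mean signal is 300 or more, diamonds are probe sets annotated to several genes, dashed lines mark 1.5-fold and the grey band holds the central 95% of bright genes (−0.57 to 0.46), below which both Ifi200 diamonds lie.

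Guanylate-binding proteins are large GTPases that assemble on the vacuoles of intracellular pathogens. Gbp2 had 4669.8 in Pac1-/- cells and 4637 in wild-type cells, a log2 ratio of 0.010. Gbp3 had 3606 in Pac1-/- cells and 4137 in wild-type cells (−0.20). A smaller family, the immunity-related GTPases, acts at the same membranes, with Irgm proteins as regulators of the others. Irgm1 had 981 in Pac1-/- cells and 813 in wild-type cells (0.27), and Irgm2 had 2209 in Pac1-/- cells and 2213 in wild-type cells (−0.0025). Ifi47 (Irgd), another GTPase of the family, had 2862 in Pac1-/- cells and 2502 in wild-type cells (0.19).

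Igtp and Iigp1 had mean signals under 300. Igtp (Irgm3) had 129 in Pac1-/- cells and 91.9 in wild-type cells, a log2 ratio of 0.49. Iigp1 (Irga6), a GTPase that disrupts parasite vacuoles, had 218 in Pac1-/- cells and 309.6 in wild-type cells (−0.51), from a probe set with a suffix that warns of cross-hybridisation. The second Iigp1 probe set gave 223 in Pac1-/- cells and 226 in wild-type cells (−0.021), so the lower value was not seen in both. The probe set annotated to Tgtp1 and Tgtp2 together had 3455 in Pac1-/- cells and 3497 in wild-type cells (−0.018). The 5 GTPases of this family with a value of their own had a median of 0.19 and ranged from −0.51 to 0.49.

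The Ifi200 family encodes nuclear and cytoplasmic proteins that bind DNA and proteins of the innate response. Ifi204 had 3238 in Pac1-/- cells and 3806 in wild-type cells in its bright probe set, a log2 ratio of −0.23, and 231 in Pac1-/- cells and 218 in wild-type cells in its dim one (0.084). The suffixes of both mark possible cross-hybridisation. A probe set annotated to Ifi204, Ifi205, Ifi211 and Mndal together had 3746 in Pac1-/- cells and 5738 in wild-type cells (−0.62). Another, annotated to Ifi203 and 2 related loci, had 341 in Pac1-/- cells and 567 in wild-type cells (−0.73). These shared probe sets were 1.53-fold and 1.66-fold lower and cannot be assigned to a single gene. Of all 1767 bright probe sets, 2.43% were 1.5-fold or more lower. Their log2 ratios stayed between −0.66 and −0.62 and between −0.73 and −0.69 with quantile normalization, loess or another floor, and were −0.73 and −0.85 after scaling to equal medians. Ifi203 and Ifi205 also carry the response element in a promoter window of the RefSeq table.

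**Figure D5:**
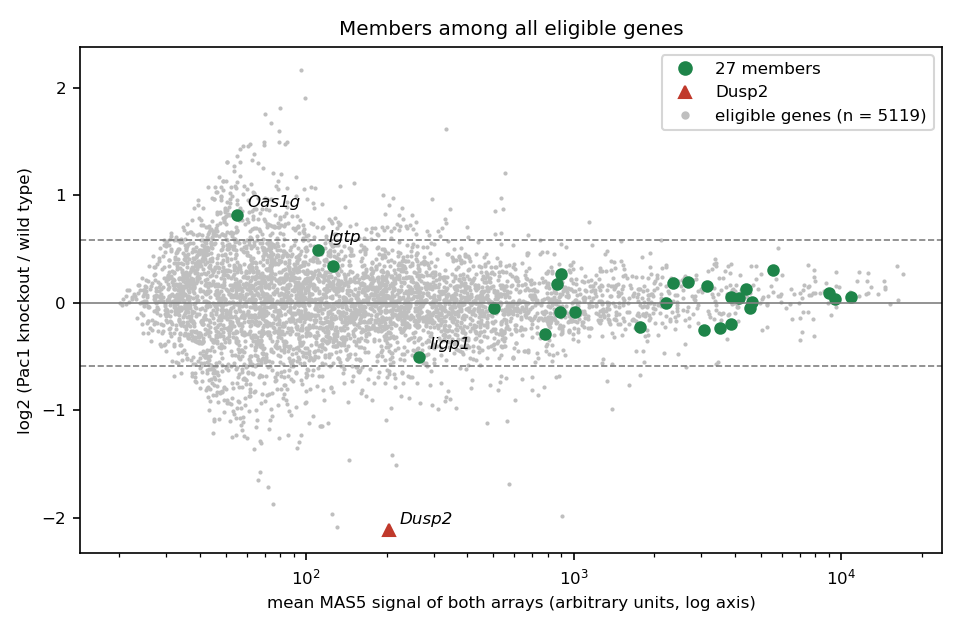
Log2 ratio of Pac1 knockout over wild type (vertical axis) against the mean signal of both arrays (horizontal log axis, arbitrary units) for all 5119 eligible genes (grey), the 27 members (green circles) and Dusp2 (red triangle). The scatter of grey points narrows with brightness, and the bright members lie along 0 while Dusp2 is at −2.12.

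Among sensors of nucleic acids, Ifih1 (MDA5), a receptor for long double-stranded RNA, had 3956 in Pac1-/- cells and 3824 in wild-type cells (log2 ratio 0.049). Eif2ak2 (PKR), the kinase that stops translation on double-stranded RNA, had 142 in Pac1-/- cells and 112 in wild-type cells (0.34), both signals being dim. Samhd1, which depletes deoxynucleotides, had 3332 in Pac1-/- cells and 2981 in wild-type cells (0.16). Adar edits adenosine in double-stranded RNA. Its brighter probe set had 493 in Pac1-/- cells and 511 in wild-type cells (−0.051) and its dimmer one 92.2 in Pac1-/- cells and 112 in wild-type cells (−0.28).

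The Trim members are ubiquitin ligases and regulators of innate signalling. All 3 measured were bright and below 0, where 725 of all 1433 bright genes also lay. Trim30a, an inhibitor of Toll-like receptor signalling, had 705 in Pac1-/- cells and 863 in wild-type cells (log2 ratio −0.29), the lowest of the bright members. Trim25, which acts on RIG-I, had 1637 in Pac1-/- cells and 1918 in wild-type cells (−0.23). Trim21, a cytosolic antibody receptor, had 984 in Pac1-/- cells and 1045 in wild-type cells (−0.087), and its other probe set, with 329 in Pac1-/- cells and 355 in wild-type cells, gave −0.11. All 3 genes kept a ratio below 0 under every processing tried, between −0.41 and −0.062, but each was less than 1.5-fold apart. Ifi35, an interferon-induced leucine zipper protein, had 2506 in Pac1-/- cells and 2205 in wild-type cells (0.18).

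The 14 members with a response element in their promoter window had a median log2 ratio of 0.042, from −0.29 to 0.82, and the 8 without it had 0.17, from −0.23 to 0.30. The highest ratio of the first set was that of the dim Oas1g. No test of this difference was made.

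Upstream of the members, 22 of 28 measured genes of interferon production and signalling were eligible, 8 above 0 and 14 below. Their median log2 ratio was −0.037. In this list 2 genes were 1.5-fold or more higher and 1 was lower, against 6.37% and 5.72% of all eligible genes. Of bright genes 1.26% were 1.5-fold or more higher and 2.3% lower. The list had a median mean signal of 651, against 127 for all eligible genes. The higher genes of this list, named after their values were seen, were the interferon-alpha gene Ifna5 and Irf8, a factor of macrophage differentiation. Irf8 had 818 in Pac1-/- cells and 528 in wild-type cells (0.63). Ifna5 had 78.4 in Pac1-/- cells and 43.6 in wild-type cells (0.85), both dim. Of the other interferon-alpha genes, Ifna4 had 29.9 in Pac1-/- cells and 45.2 in wild-type cells (−0.31). Ifna9 had 13.6 in Pac1-/- cells and 44.3 in wild-type cells (−0.28). Both Ifna4 and Ifna9 were below the floor in Pac1-/- cells. Ifna2, Ifna7 and Ifna11 were below it on both arrays. The interferon-beta gene Ifnb1 was below the floor on both arrays, at 23.7 in Pac1-/- cells and 14.8 in wild-type cells. The chains of the interferon-alpha and -beta receptor were close to equal, with Ifnar1 at 785 in Pac1-/- cells and 764 in wild-type cells (0.039) and Ifnar2 at 805 in Pac1-/- cells and 827 in wild-type cells (−0.039). Of the interferon-gamma receptor chains, Ifngr1 had 85.7 in Pac1-/- cells and 61.5 in wild-type cells (0.48), both dim, and Ifngr2 was below the floor on both arrays. Jak1, a partner kinase of the interferon-alpha and -beta receptor, had 830.2 in Pac1-/- cells and 862 in wild-type cells (−0.055). Tyk2, the other kinase of the interferon-alpha and -beta receptor, had 44.7 in Pac1-/- cells and 101 in wild-type cells. It was 2.25-fold lower (log2 ratio −1.17), but from a dim probe set. Irf9, the DNA-binding subunit of the interferon-activated factor, had 874 in Pac1-/- cells and 1042 in wild-type cells (−0.25). Irf7, the amplifier of interferon production, had 1476 in Pac1-/- cells and 1482 in wild-type cells (−0.0055). Irf1 had 1427 in Pac1-/- cells and 1534 in wild-type cells (−0.10), and Irf3, the factor activated downstream of TRIF, had 56.7 in Pac1-/- cells and 72.4 in wild-type cells (−0.35). Tlr4 was not measured here.

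Of 57 further interferon-stimulated genes listed, 33 were measured and 29 eligible, 12 above 0 and 17 below, with a median of −0.015. None was 1.5-fold apart (0 of 29), against 6.37% of all eligible genes higher and 5.72% lower. These 29 genes had a median mean signal of 863, against 127 for all eligible genes. Of bright genes, the closer comparison, 1.26% were 1.5-fold or more higher and 2.3% lower, and 0 of 29 is near these shares. The lowest were Plscr1, which encodes a phospholipid scramblase, with 93.1 in Pac1-/- cells and 137 in wild-type cells (−0.56), Gbp7 with 1479.8 in Pac1-/- cells and 2170.1 in wild-type cells (−0.55) and Sp100, of the nuclear bodies, with 194 in Pac1-/- cells and 241 in wild-type cells (−0.32). The highest were Ifi27l2a with 196 in Pac1-/- cells and 139 in wild-type cells (0.50), the death ligand gene Tnfsf10 with 116 in Pac1-/- cells and 83.4 in wild-type cells (0.48) and Lgals3bp with 927 in Pac1-/- cells and 666 in wild-type cells (0.48).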

How the data were processed

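RNA of Pac1 knockout and wild-type macrophages was measured on 1 Affymetrix array each. The deposited values are intensities on a linear scale, made by the authors with MAS5, per the submitters' processing notes, which state no version or settings. Trimmed means of the arrays (2% at each end) were 150.0 and 150.0, so the authors had scaled them alike. Of 12654 probe sets 10298 had 1 gene symbol in the platform annotation, 363 several and 1993 none. Probe sets designed against the wrong strand were not identified here. The arrays were rescaled to equal trimmed means, signals were raised to the floor, log2 ratios were taken, and the probe set with the highest mean signal stood for a gene (Python 3.11.15, SciPy 1.17.1). The calculation was tested on simulated data, with ratios past 2-fold put into bright genes and less scatter than these arrays show. That simulation put no differences into dim genes and none as small as those of most members. The number of arrays limits the precision.

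Every member above the floor was named. Members, lists, thresholds and alternatives were chosen with earlier results of these data known, and the limit of 300 for bright genes after seeing the values. RefSeq promoter windows (GRCm38.p6) were searched with fixed motifs.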

Additional observations from a re-analysis of the deposited data

How the results depend on the processing

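Under 9 other processings and 2 more chosen after seeing the data, 0 members were 2-fold apart. No ratio of a member past 1.5-fold changed sign. With arrays scaled to the same median, the members' median log2 ratio was −0.0728, with 10 above 0, 17 below and 1 (Iigp1) 1.5-fold lower, which was also the count by probe set (1). That scaling shifted the median of all eligible genes by −0.11. The medians by group were then −0.0698 for Ifit and Isg, 0.6964 for Oas (1 gene), −0.0393 for Mx, Rsad2 and Cmpk2, −0.2128 for Gbp, 0.0752 for immunity-related GTPases, −0.3516 for Ifi200, −0.014 for sensors and effectors, −0.3474 for Trim, 0.0663 for Ifi35, −0.1556 for interferon pathway genes and −0.1334 for further interferon-stimulated genes. Quantile normalization put the Ifit and Isg median at −0.0517. A floor at the 75th percentile left 25 members eligible, and 0 members and 0 probe sets were then 1.5-fold higher, since Oas1g was no longer eligible. The Ifi200 value was −0.0747 as the mean over the probe sets of a gene, and Iigp1 was at −0.0212 without probe sets marked for cross-hybridisation. With the shared probe sets counted, 2 were 1.5-fold lower, and with bright members only, 0 were 1.5-fold higher. No paired analysis was possible because each genotype has 1 array, and no replicate could be left out. Which of these differences would recur in other mice cannot be read from these arrays, and low signals (Oas1g, Igtp, Eif2ak2) are the least certain.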

Other observations

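Because the shared Ifi200 probe sets had the lowest ratios, the other probe sets of that family were looked up after the values were seen, so they are a description and no independent support. Of 8 probe sets annotated to Ifi200 genes, 6 were eligible, 5 of them below 0 and 1 (the dim one of Ifi204) above, with a median log2 ratio of −0.32. The count includes the shared probe sets that prompted the look-up. Of all eligible genes 2447 of 5119 were below 0. Ifi209 had 459 in Pac1-/- cells and 608 in wild-type cells (−0.40), and Ifi207 had 635 in Pac1-/- cells and 697 in wild-type cells (−0.13). The 2 probe sets of Ifi202b were below the floor on both arrays. These genes are similar in sequence, and the annotation lists up to 4 of them for 1 probe set, so the values are not independent of each other.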
